A study of Homo sapiens with 6 samples.

Results

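The genes described here are 10 components of insulin-like growth factor (IGF) and insulin signalling: the growth factor IGF2, the receptors IGF1R, IGF2R and INSR, the receptor substrates IRS1 and IRS2, and the binding proteins IGFBP1, IGFBP2, IGFBP3 and IGFBP4. They were taken from the deposited table by gene symbol, and all 10 of them were among its 19846 genes. All 10 passed the filter on low counts that left 15314 genes for testing. RNA was measured in HepG2, an established human liver tumour line at passage 7 to 9, in 3 samples grown as 2D culture in 6-well plates and 3 samples grown as 3D culture in an interwoven hollow fiber bioreactor. Plates received EMEM, renewed every 2 days, after seeding at 200000 cells per square centimetre. The labels give no serum or GlutaMAX percentage for the plates. The bioreactor held EMEM mixed with an equal part of DMEM, with 10% FBS, 1% GlutaMAX and Penicillin-Streptomycin, recirculated at 23.5 mL/min and fed at 2 mL/hour. The labels give no genetic change or drug for either group. Culture form, medium and feeding differed together, so their parts in any difference cannot be told apart. Whether the 3 samples of each group were grown separately is not stated. Each p-value therefore reflects sample-to-sample spread here, part of which may be technical.

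IGF2 and IGF1 are secreted growth factors that act through IGF1R, a receptor tyrosine kinase, and IGF2 also acts through INSR, the insulin receptor. The activated receptors phosphorylate IRS1 and IRS2, which recruit PI3 kinase and so activate AKT. IGF2R, also known as the cation-independent mannose-6-phosphate receptor, takes up IGF2 for degradation and carries no kinase signal. Binding proteins hold IGFs in the extracellular space. The liver is the main source of circulating IGFs and of IGFBP1, whose transcription insulin represses in hepatocytes, and IGF2 is a growth factor of fetal liver that many liver tumours express.

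Promoter sequences are shown for the 3 receptors and IRS1, which fell together, and for IGFBP4, which rose, as examples of the 8 genes with a window. Each is the 250 bases before the start of the gene in RefSeq (GRCh38.p14), read 5′ to 3′ on the gene's strand. Of the 10 genes, 8 matched the RefSeq promoter table by symbol, and IGF2 and IGFBP1 did not. Capitals mark exact matches, on either strand, to GGGCGG (the GC box bound by SP1), TATAAA (the TATA box), GTAAACA (a FOXO motif), TNTTTTG (the core of insulin response sequences) and TGATGNAA (the ATF4 response element).
INSR (chr19:7294415-7294664, minus strand): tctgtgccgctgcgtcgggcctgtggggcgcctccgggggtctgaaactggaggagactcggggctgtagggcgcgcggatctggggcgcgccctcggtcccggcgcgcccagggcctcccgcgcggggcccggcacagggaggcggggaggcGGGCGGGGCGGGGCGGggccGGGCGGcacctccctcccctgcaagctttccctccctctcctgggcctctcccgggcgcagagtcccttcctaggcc
IGF1R (chr15:98648289-98648538, plus strand): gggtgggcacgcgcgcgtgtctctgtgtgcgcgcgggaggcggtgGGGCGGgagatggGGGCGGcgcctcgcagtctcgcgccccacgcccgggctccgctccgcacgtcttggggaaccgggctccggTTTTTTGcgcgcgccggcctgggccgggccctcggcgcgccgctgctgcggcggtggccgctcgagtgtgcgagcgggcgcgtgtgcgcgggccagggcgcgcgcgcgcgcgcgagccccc
IGF2R (chr6:159968832-159969081, plus strand): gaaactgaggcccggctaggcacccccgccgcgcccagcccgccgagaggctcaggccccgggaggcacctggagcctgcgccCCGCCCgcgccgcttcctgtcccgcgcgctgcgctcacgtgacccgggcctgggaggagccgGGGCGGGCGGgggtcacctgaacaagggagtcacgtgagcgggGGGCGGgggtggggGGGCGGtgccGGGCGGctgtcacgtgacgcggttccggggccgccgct
IRS1 (chr2:226799821-226800070, minus strand): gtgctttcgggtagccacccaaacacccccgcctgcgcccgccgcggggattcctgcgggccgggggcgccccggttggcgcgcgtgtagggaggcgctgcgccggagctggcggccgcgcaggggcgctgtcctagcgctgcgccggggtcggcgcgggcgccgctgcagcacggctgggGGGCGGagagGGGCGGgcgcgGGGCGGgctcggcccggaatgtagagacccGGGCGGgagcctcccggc
IGFBP4 (chr17:40443200-40443449, plus strand): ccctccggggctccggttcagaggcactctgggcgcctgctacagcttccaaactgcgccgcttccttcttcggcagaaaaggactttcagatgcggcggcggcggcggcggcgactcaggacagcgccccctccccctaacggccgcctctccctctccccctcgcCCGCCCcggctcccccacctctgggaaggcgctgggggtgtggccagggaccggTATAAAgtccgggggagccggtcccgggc

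The 4 promoters of the genes that fell were rich in G and C: 78.4% for INSR, 81.2% for IGF1R, 79.2% for IGF2R and 80.8% for IRS1, against a median of 58% over 35116 promoter windows of the same length. They held 28 (INSR), 48 (IGF1R), 33 (IGF2R) and 39 (IRS1) CG dinucleotides, where the median window held 11. GGGCGG occurred 4 times in INSR, 2 times in IGF1R, 6 times in IGF2R and 4 times in IRS1, some of these matches overlapping each other. It was present in 42.6% of all windows. The window of IGFBP4 was 71.6% G and C with 24 CG dinucleotides, and was the only window of the 5 shown with TATAAA, which 10.7% of all windows held. TNTTTTG matched 1 time in IGF1R (15% of all windows). Genes that were not called had windows of like composition: IRS2 held 76.4% G and C, 42 CG dinucleotides and 5 matches to GGGCGG, and IGFBP3 held 76%, 32 and 2. The 3 windows of IGFBP2, which rose, held 56.4% to 69.2% G and C and 4 to 22 CG dinucleotides. GTAAACA (2.98% of windows) and TGATGNAA (3.14%) matched in none of the 5 windows, which says only that these letters are absent from them.

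Library totals lay between 16270361 and 17943513 counts in 2D and between 9530795 and 15897621 in 3D. Levels below are CPM, in which each library is brought to the same total after TMM scaling for composition, and changes are 3D over 2D. A gene was called at an edgeR adjusted p under 0.05 (quasi-likelihood test, Benjamini-Hochberg over all 15314 genes). By that rule 36.6% of all tested genes were called, 19% higher and 17.6% lower in 3D. The liver markers ALB (6237 ± 1322 CPM in 2D and 9849 ± 3472 CPM in 3D, SD, n = 3 per group) and APOB (17756 ± 1051 and 6631 ± 2107 CPM) were abundant in every library. APOB fell (edgeR adjusted p = 0.000614), and ALB was not called (0.0698, but 0.00576 without 3D replicate 1). Of 10 hepatocyte markers 2 rose and 1 fell. Among markers of other cells, 3 of 8 fibroblast, 3 of 6 endothelial, 3 of 6 blood and macrophage and 6 of 7 bile duct genes were in the table. Their summed levels were 35.1 to 43.2 CPM in 2D and 19.3 to 26.0 CPM in 3D for fibroblast genes, and 2.00 to 4.79 and 2.46 to 5.49 CPM for endothelial genes. Blood and macrophage genes summed to 8.58 to 11.3 CPM in 2D and 25.0 to 45.2 CPM in 3D. CD68, a lysosomal protein, gave 6.14 to 9.58 CPM of this in 2D and 22.3 to 41.4 CPM in 3D. PTPRC, CSF1R and CD3E of the same list were not among the genes of the deposited table. Bile duct genes, of which 4 rose and 1 fell, summed to 703 to 908 CPM and 1070 to 1302 CPM. The part of these genes in the results was not tested. All libraries were of the HepG2 line, so these levels do not count cells of other types. In bulk samples, fewer cells of a type and less RNA per cell cannot be told apart.

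In 3D culture the ligand rose while its receptors and the main receptor substrate fell, and the binding proteins moved in opposite directions. IGF2, IGFBP2 and IGFBP4 were higher (3 of 10), and IGF1R, IGF2R, INSR, IRS1 and IGFBP1 were lower (5 of 10). IRS2 and IGFBP3 were not called. The 2D and 3D libraries did not overlap for 8 of the 10 genes (3 above, 5 below). Among all tested genes 50.5% did not overlap, with 25.6% above and 24.9% below. Of all tested genes 19% were called higher and 17.6% lower. The median log2 fold change of the 10 genes was −0.82, against 0.02 over all genes tested. After correction for transcript length and GC content these medians were −0.6 and −0.02.

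**Figure D1:**
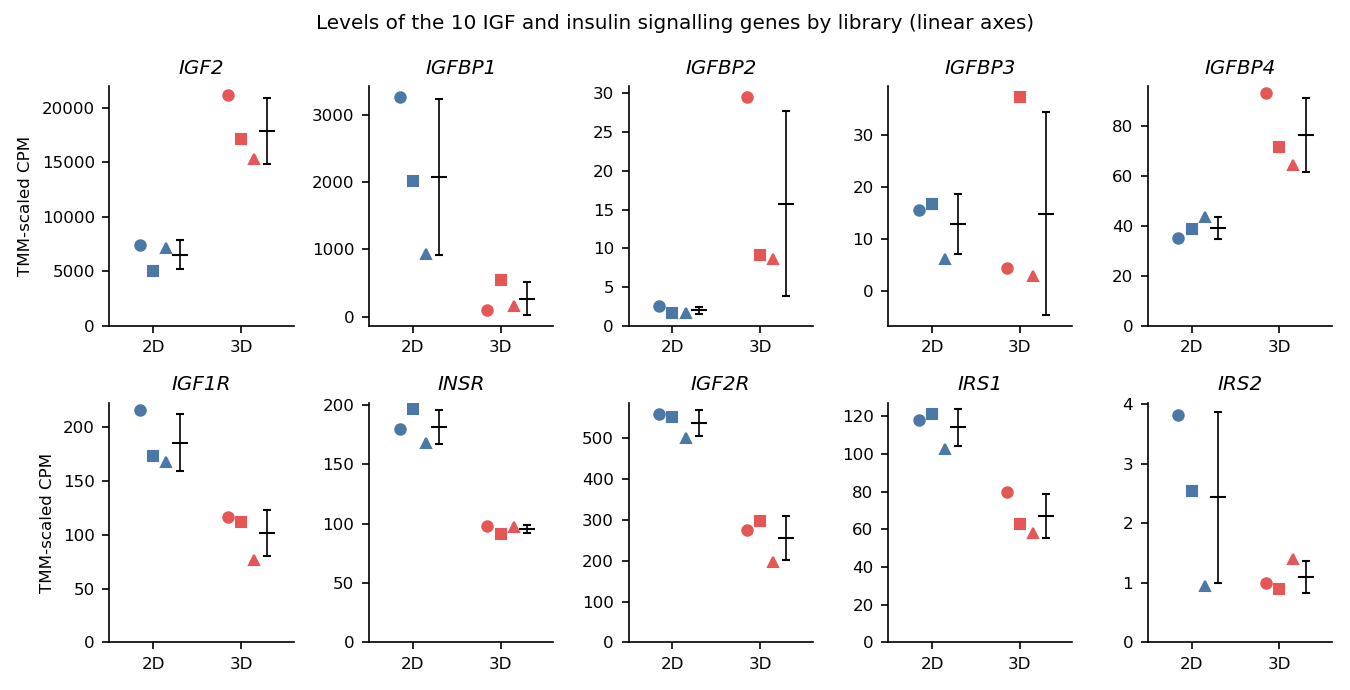
Levels of the 10 genes in TMM-scaled CPM (linear axes) in the 2D (blue) and 3D (red) libraries; circles, squares and triangles are replicates 1, 2 and 3, and the bars beside them are the mean ± SD (n = 3). The groups do not overlap for 8 genes, and they overlap for IGFBP3, where 3D replicate 2 stands at 37.2 CPM, and for IRS2.

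IGF2 (chromosome 11, 2129112 to 2141239, hg38, minus strand) stood at 7453, 5006 and 7116 CPM in 2D replicates 1 to 3. In 3D replicates 1 to 3 it stood at 21209.6, 17171 and 15314 CPM. Every 3D library was thus above every 2D library, by more than the spread within either group. The rise was 2.74-fold (log2 1.46, SE 0.20, edgeR adjusted p = 0.00039), and it was 1.33 on the log2 scale after correction for transcript length and GC content. IGF2 took 0.732%, 0.5% and 0.715% of all counts in the 2D libraries and 2.24%, 1.67% and 1.5% in the 3D libraries. Exact binomial 95% intervals of these shares were narrow (0.496% to 0.503% at the lowest share, 2.23% to 2.25% at the highest) and cover counting error only. By count IGF2 ranked 9th, 12th and 10th among all genes in 2D. In 3D it was the most abundant gene in replicate 1 and ranked 2nd in replicates 2 and 3. IGF2-AS, an antisense RNA that overlaps IGF2, had 24 to 94 counts per library, at most 0.0655% of the IGF2 count. INS-IGF2, a read-through gene on the same strand, was not analysed here, so its reads cannot be told from those of IGF2.

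No gene on the list of H19 and the IGF2 mRNA-binding proteins was called higher. H19, the imprinted noncoding RNA beside IGF2, was at 0.751, 7.76 and 1.22 CPM in 2D and at 1.79, 0.969 and 0.492 CPM in 3D. It was low in 5 libraries and highest in 2D replicate 2, and it was not called (log2 −1.63, edgeR adjusted p = 0.200, and 0.06 with adjusted p = 0.944 without that library). IGF2BP2 and IGF2BP3, which bind IGF2 mRNA, fell from 196.2 ± 8.61 to 138.6 ± 3.50 CPM (edgeR adjusted p = 0.00483) and from 79.9 ± 7.06 to 53.8 ± 9.69 CPM (0.0111). IGF2BP1, the other IGF2 mRNA-binding protein and the most abundant gene of this list, was not called (log2 0.01, SE 0.14, edgeR adjusted p = 0.95). Its mean was 398 CPM (SD 36.7) on plates against 402 CPM (SD 54.3) in the bioreactor, and the groups overlapped. Of the 4 genes on this list 0 rose and 2 fell.

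IGFBP1 (chromosome 7, 45888357 to 45893669, plus strand), the binding protein that insulin represses in liver, was at 3262, 2020.1 and 933 CPM in 2D. It was at 93.6, 544.7 and 159.8 CPM in 3D. The groups did not overlap, but levels within each group spread more than 3-fold, and the lowest 2D and highest 3D libraries were the closest. The IGFBP1 log2 fold change was −2.96 (SE 0.79, edgeR adjusted p = 0.0296), a 7.78-fold fall. The edgeR call was lost without 2D replicate 1 (adjusted p = 0.0934), 2D replicate 2 (0.113), 2D replicate 3 (0.0596) or 3D replicate 1 (0.0685). Without 3D replicate 2 the log2 fold change was −4.03 (0.00223). DESeq2 and limma-voom called it on all 6 libraries (adjusted p = 0.00409 and 0.00202), where these tools called 17.8% and 18% of all genes lower, and the direction was the same in all 18 alternative analyses.

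IGFBP2 (chromosome 2, 216632828 to 216664437), a binding protein typical of fetal liver, was low on plates, at 2.57, 1.70 and 1.72 CPM (28 to 41 counts). In 3D it was at 29.6, 9.11 and 8.65 CPM, with replicate 1 far above the other 2 and every 3D library above every 2D library. It rose 7.79-fold (log2 2.96, SE 0.53, edgeR adjusted p = 0.00355). Without 3D replicate 1 the log2 fold change was 2.14 (0.00022).

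IGFBP3 (chromosome 7, 45912245 to 45921875), the main carrier of IGFs in serum, lies next to IGFBP1 on the opposite strand. It was at 15.5, 16.8 and 6.27 CPM in 2D and at 4.36, 37.2 and 2.95 CPM in 3D. Replicate 2 held the highest value of all libraries and the other two 3D libraries the lowest, so the groups overlapped. IGFBP3 was not called (log2 0.24, SE 0.96, edgeR adjusted p = 0.871), and without 3D replicate 2 it was lower (−1.83, 0.0161). IGFBP1 was also highest in that library among the 3D samples. A list of 10 genes induced by low oxygen, 7 of which rose and 0 fell, summed to 1309, 1049 and 1147 CPM in 2D and to 1632, 1772 and 1067 CPM in 3D replicates 1 to 3. The sum of 3D replicate 3 lay within the 2D range, and SLC2A1 and VEGFA, the most abundant genes of the list, were not called. These 2 genes make up much of the sum. Each of the 7 genes that rose was higher in every 3D library, replicate 3 included, than in every 2D library. Of all tested genes 25.6% were so. The part of these genes in the results was not tested.

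IGFBP4 (chromosome 17, 40443461 to 40457732), a binding protein that inhibits IGF action until it is cleaved, was at 35.1, 38.9 and 43.7 CPM in 2D. It was at 93.0, 71.5 and 64.5 CPM in 3D, all above the 2D libraries. The rise was 1.94-fold (log2 0.96, SE 0.16, edgeR adjusted p = 0.00083), and 0.57 on the log2 scale after the same correction (0.00619). PAPPA, the protease that cleaves IGFBP4, went from 0.985 ± 0.331 to 3.13 ± 1.61 CPM (log2 1.67, edgeR adjusted p = 0.0103, and 1.15 with 0.0593 without 3D replicate 2). PAPPA had only 10 to 22 counts per 2D library. STC2, an inhibitor of PAPPA, fell from 215.9 ± 17.7 to 121.6 ± 36.6 CPM (edgeR adjusted p = 0.00871). STC1, on the same gene list as STC2, had 0 counts in every 2D library and 7 to 24 in the 3D libraries, and was not tested.

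IGFALS, which forms a ternary complex with IGFs and IGFBP3, rose from 1.43 ± 0.15 to 5.46 ± 1.19 CPM (edgeR adjusted p = 0.000504). IGFBP7, a binding protein of low affinity, rose from 0.797 ± 0.114 to 4.31 ± 2.60 CPM (log2 2.44, edgeR adjusted p = 0.00212, and 1.84 without 3D replicate 2). Of 5 tested genes on the list of other binding proteins and their regulators, 3 rose and 1 fell (median log2 fold change 1.67). The ligands of this list, IGF1 and INS, were not among the genes of the deposited table, so the median covers no ligand.

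Levels can be compared between genes only per transcript length, here as CPM per kilobase of the longest transcript in GENCODE 29. On that scale IGF2 (896 to 1334 in 2D) and IGFBP1 (565 to 1973) overlapped on plates. In 3D IGF2 (2742 to 3798) stood far above IGFBP1 (56.6 to 329.5). IGF2 was 0.676, 0.733 and 2.26 times IGFBP1 in the 2D libraries and 67.0, 9.33 and 28.4 times IGFBP1 in the 3D libraries. IGFBP1 made up 96.1% to 98.9% of the summed level of the 4 binding proteins in 2D and 52.7% to 86.8% in 3D. The share of IGFBP4 was 0.798% to 3.38% in 2D and 8.57% to 39.4% in 3D. The longest IGFBP2 transcript retains an intron. With the longest protein-coding transcript the IGFBP2 level per kilobase was 1.18 to 1.78 in 2D and 6.01 to 20.5 in 3D, in place of 0.385 to 0.582 and 1.96 to 6.70, and IGFBP1 then made up 46.7% to 85.9% of the sum in 3D. These ratios rest on the levels tested above and were given no test of their own.

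**Figure D2:**
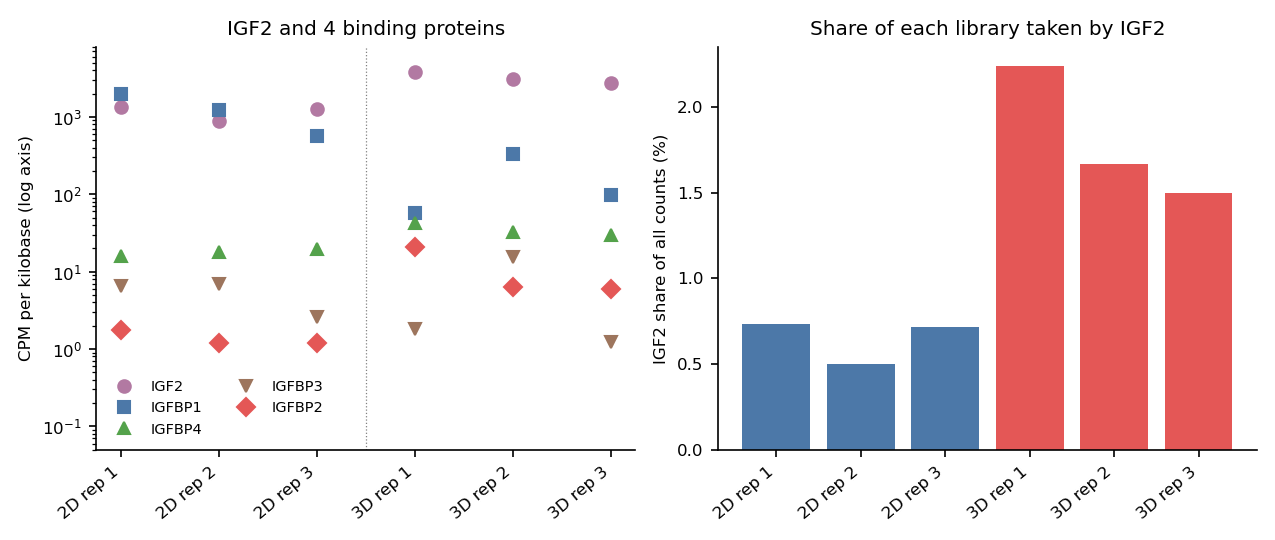
Left, CPM per kilobase of the longest protein-coding transcript (log axis) of IGF2 and 4 binding proteins in each library, with a marker and colour per gene; right, IGF2 as a share of all counts (%), where 2D bars are blue and 3D bars red. IGF2 and IGFBP1 lie close together in the 2D libraries, and in the 3D libraries IGF2 lies 9.33 to 67.0 times above IGFBP1.

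All 3 receptors fell. IGF1R (chromosome 15, 98648971 to 98964531), the main signalling receptor for IGFs, was at 216.2, 173.7 and 167.9 CPM in 2D. It was at 116.4, 112.3 and 76.8 CPM in 3D, with every 3D library below every 2D library. The log2 fold change was −0.87 (SE 0.17, edgeR adjusted p = 0.0025).

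INSR (chromosome 19, 7112255 to 7294035), the insulin receptor, was at 180.1, 196.9 and 167.8 CPM in 2D and at 98.4, 91.6 and 97.2 CPM in 3D. The 3D libraries lay closer together than the 2D libraries, and the groups were well apart. The log2 fold change was −0.92 (SE 0.12, edgeR adjusted p = 0.000223). How reads divide between the 2 INSR isoforms, with and without the small alternative exon, was not analysed here.

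IGF2R (chromosome 6, 159969099 to 160113508), the clearance receptor, was at 558.4, 551.0 and 501.0 CPM in 2D and at 274.0, 296.4 and 195.5 CPM in 3D. It was lower in every 3D library, at log2 −1.07 (SE 0.16, edgeR adjusted p = 0.000517). AIRN, an antisense gene that GENCODE places over IGF2R, was not analysed here.

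Per kilobase the order of the receptors on plates was IGF2R (35.7 to 39.8), INSR (18.7 to 22.0) and IGF1R (13.7 to 17.7), with no overlap between neighbours. In 3D the order was the same, with IGF2R at 13.9 to 21.1, INSR at 10.2 to 11.0 and IGF1R at 6.28 to 9.52. IGFBP4, at 15.9 to 19.9 on plates, overlapped INSR and IGF1R there, and at 29.3 to 42.3 it lay above all 3 receptors in 3D. The ratio of IGF1R to INSR was 0.646 to 0.879 in 2D and 0.578 to 0.897 in 3D, overlapping ranges.

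IRS1 (chromosome 2, 226731317 to 226799760), the substrate that links both signalling receptors to PI3 kinase, was at 118.3, 121.2 and 102.9 CPM in 2D. It was at 80.0, 62.9 and 58.1 CPM in 3D, again with no overlap. The log2 fold change was −0.77 (SE 0.14, edgeR adjusted p = 0.00175). IRS2 (chromosome 13, 109752698 to 109786569), the other main substrate in liver, was at 3.82, 2.55 and 0.944 CPM in 2D and at 0.992, 0.905 and 1.41 CPM in 3D. It was low in all 6 libraries, with at most 61 counts, and the groups overlapped through 2D replicate 3. IRS2 was not called (log2 −1.13, SE 0.48, edgeR adjusted p = 0.0874), and without 2D replicate 3 it was (−1.53, 0.0161). Per kilobase IRS1 (10.6 to 12.5 in 2D, 5.99 to 8.25 in 3D) lay just below IGF1R on plates and overlapped it in 3D. IGFBP3 was at 2.60 to 6.96 in 2D and 1.22 to 15.4 in 3D. IRS2 (0.116 to 0.469 in 2D, 0.111 to 0.173 in 3D) was the lowest of the 10 genes in 3D. In 2D it overlapped IGFBP2 by the longest IGFBP2 transcript (0.385 to 0.582) but not by the protein-coding one (1.18 to 1.78). IRS1 was 26.0 to 91.4 times IRS2 in 2D and 34.7 to 67.7 times in 3D.

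The receptors and substrates have long transcripts, and long transcripts as a class were lower in 3D. IGF1R (12235 bases), IGF2R (14044), INSR (8954), IRS1 (9705) and IRS2 (8138) were all in the longest of 10 equal length groups of protein-coding genes. Of the 1229 genes in that group 49.1% were called lower and 5.37% higher (median log2 fold change −0.42). The share of that group with a log2 fold change as low as or lower than that of the gene was 17.1% for IGF1R, 8.54% for IGF2R, 14.5% for INSR and 22.4% for IRS1. After correction for length and GC content, which left 17.0% of all genes lower and 16.8% higher, the log2 fold changes were −0.64 for IGF1R, −0.77 for IGF2R, −0.68 for INSR and −0.56 for IRS1, and all 4 were still called (edgeR adjusted p = 0.00546, 0.00142, 0.00147 and 0.00385). IGFBP1 (1653 bases) went against its length group, whose median was 0.26. IGF2 (5585 bases) did so too, with a group median of −0.14.

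**Figure D3:**
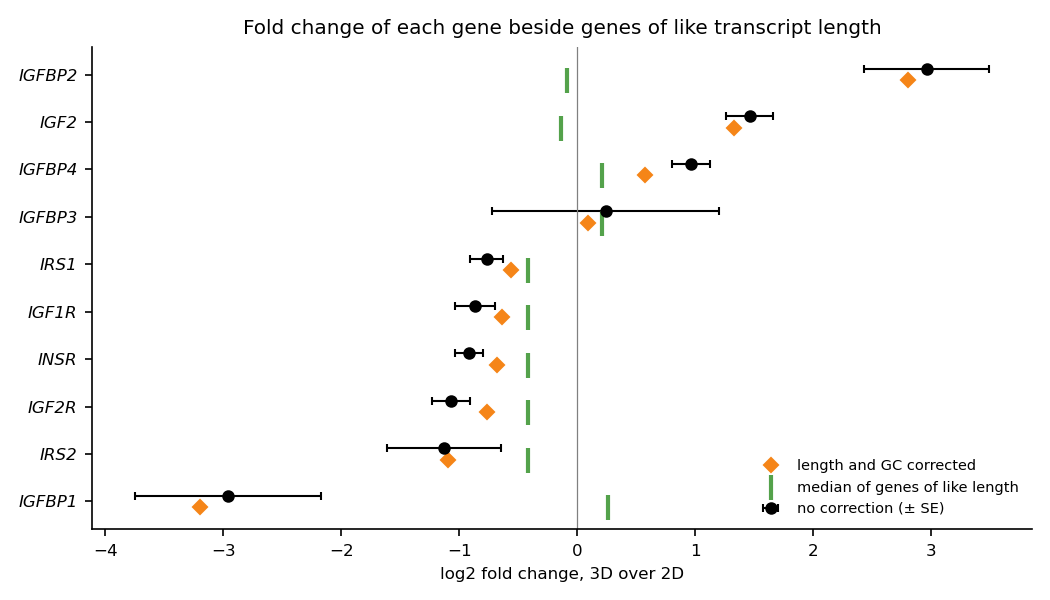
Log2 fold change, 3D over 2D, of each gene without correction (black, ± SE from the edgeR fit) and with transcript length and GC content corrected (orange diamonds), beside the median of the genes in the same length group (green bars). The receptors and IRS1 lie below the −0.42 median of their length group, and correction moves them toward 0 without reaching it.

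Downstream, 9 lists with 129 tested genes covered the rest of the pathway, and 27 of these genes rose and 44 fell. Over all tested genes 19% were called higher and 17.6% lower. The lists were chosen with earlier results of these data known, so these counts only describe them. The share called lower also depended on transcript length. It ran from 3.5% in the shortest of the 10 length groups to 49.1% in the longest. Of 25 receptor adaptors and phosphatases 1 rose and 7 fell (median log2 fold change −0.18). After correction for length and GC content 0 rose and 7 fell (median −0.16), where 16.8% of all genes were higher and 17.0% lower. ENPP1, a membrane protein that inhibits the insulin receptor, fell from 348.8 ± 52.3 to 100.6 ± 17.5 CPM (log2 −1.79, edgeR adjusted p = 4.18e-05). SOS2, an exchange factor that activates RAS, fell from 36.3 ± 1.71 to 16.7 ± 3.59 CPM, and SOCS6, a suppressor of cytokine and insulin signals, from 87.4 ± 7.66 to 47.6 ± 6.71 CPM. Of 9 genes of receptor and ligand processing, 2 rose and 5 fell, and 2 rose and 4 fell after that correction. FURIN, the protease that cleaves the precursors of both signalling receptors, rose from 94.2 ± 17.0 to 197.0 ± 35.9 CPM (edgeR adjusted p = 0.000683). CEACAM1, which promotes insulin clearance in liver, fell from 177.4 ± 19.8 to 45.8 ± 3.82 CPM.

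Of 25 PI3 kinase and AKT genes 3 rose and 12 fell, with a median of −0.31. With length and GC content corrected, 3 rose and 9 fell (median −0.22). PDPK1, the kinase that activates AKT, fell from 220.8 ± 8.27 to 105.7 ± 8.78 CPM (edgeR adjusted p = 0.000114). FOXO1, the transcription factor that AKT inactivates, fell from 50.2 ± 2.38 to 23.9 ± 5.04 CPM (0.000486). TRIB3, an inhibitor of AKT, fell from 503.0 ± 48.3 to 187.5 ± 23.1 CPM. TRIB3 is an ATF4 target too, and 6 of 9 tested ATF4 target genes fell and 0 rose. Their list summed to 2180 to 2397 CPM in 2D and 815 to 1116 CPM in 3D, and its part in the results was not tested. AKT1 rose from 115.1 ± 3.63 to 150.3 ± 21.1 CPM (edgeR adjusted p = 0.035), but this call was lost without any of the 2D libraries (0.0859 to 0.136), without 3D replicate 1 (0.0838) or without 3D replicate 3 (0.0745). TBC1D1, an AKT substrate, rose 1.68-fold.

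Of 19 mTOR genes 3 rose and 5 fell, with a median of −0.15. With length and GC content corrected, 2 rose and 7 fell (median −0.17). RICTOR, the defining subunit of mTOR complex 2, fell from 83.6 ± 2.78 to 40.8 ± 6.25 CPM, SESN2, an inhibitor of complex 1, from 65.9 ± 4.14 to 33.9 ± 9.70 CPM, and RPS6KB1, the S6 kinase, from 85.2 ± 3.67 to 55.3 ± 6.97 CPM. SESN2 is also on the list of ATF4 target genes. The 3 mTOR genes that rose were MLST8 (log2 0.47), DDIT4 (0.44) and MAPKAP1 (0.38). After correction for length and GC their edgeR adjusted p was 0.764, 0.715 and 0.0481. Of 12 RAS and MAP kinase genes 3 rose and 2 fell, and 2 rose and 1 fell after the same correction. HRAS rose from 11.2 ± 0.482 to 22.3 ± 3.86 CPM and BRAF fell from 51.4 ± 3.01 to 30.5 ± 1.41 CPM. Correction for length and GC moved the HRAS log2 fold change from 0.98 to 0.42 (edgeR adjusted p = 0.0298) and the BRAF log2 fold change from −0.75 to −0.32 (0.0389). Both calls were lost when a replicate block was added to that correction (0.0547 and 0.0636). MAPK3, a kinase at the end of this cascade, rose (log2 0.58), and its call was lost on correction for length and GC (edgeR adjusted p = 0.0914).

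**Figure D4:**
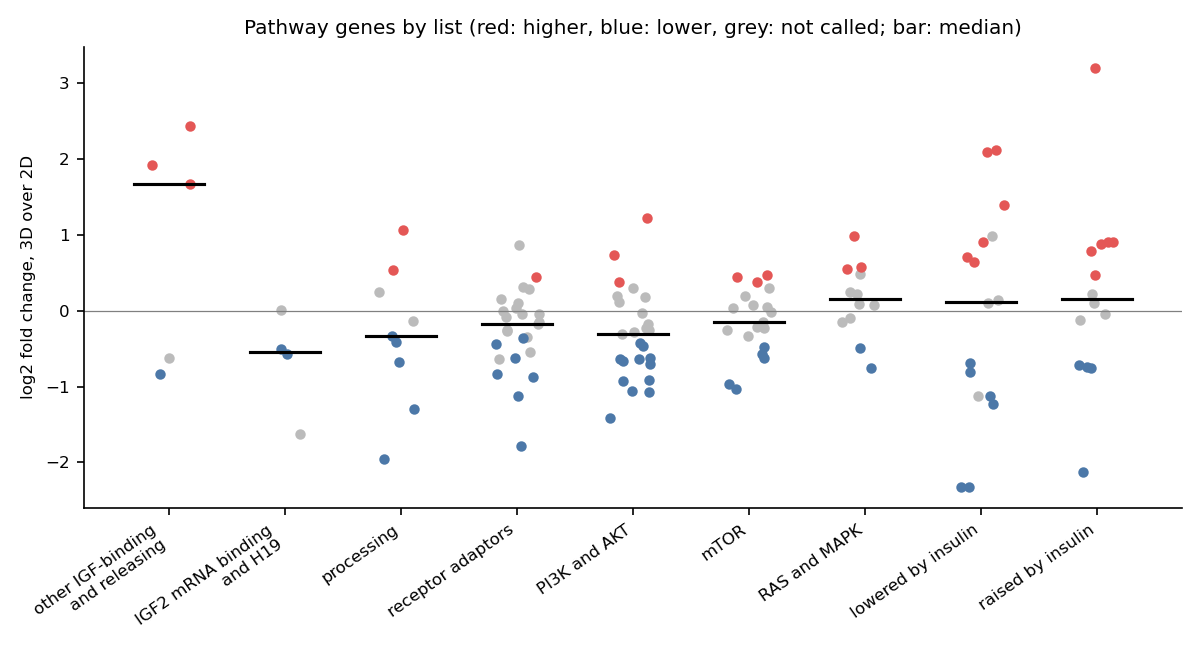
Log2 fold change, 3D over 2D, of the tested genes of 9 pathway lists; each point is a gene, red where called higher, blue where called lower and grey where not called, and the black bar is the median of the list. Points are spread sideways at random for legibility. Medians run from −0.54 for the IGF2 mRNA list to 1.67 for the list of other IGF-binding and IGF-releasing genes, whose tested genes include no ligand.

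Genes that insulin is known to control in liver went both ways. Of 16 tested genes that FOXO factors raise and insulin lowers, leaving out IGFBP1 and IRS2, 6 rose and 6 fell (median log2 fold change 0.12). PCK1 and G6PC, enzymes of glucose production, rose from 15.0 ± 2.71 to 63.7 ± 2.91 CPM (edgeR adjusted p = 1.89e-05) and from 5.98 ± 1.51 to 25.9 ± 11.8 CPM (0.00114). PPARGC1A, a coactivator of the same programme, fell from 76.1 ± 13.1 to 15.1 ± 2.54 CPM. KLF15, a fasting transcription factor, fell from 27.6 ± 3.34 to 5.50 ± 0.609 CPM, and TRIB1, a regulator of lipid metabolism, from 143.5 ± 18.9 to 61.2 ± 6.04 CPM. So IGFBP1 had the direction of PPARGC1A and KLF15 and not that of PCK1 and G6PC.

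Of 14 tested genes that insulin raises, 6 rose and 4 fell, with a median of 0.16. PFKFB3, which makes the activator of glycolysis, rose 9.16-fold and ACLY, which makes acetyl-CoA for lipid synthesis, 1.87-fold. PFKFB3 is also induced by low oxygen. SREBF1, the lipogenic transcription factor, rose from 65.6 ± 1.38 to 90.7 ± 5.70 CPM (edgeR adjusted p = 0.00761, and 0.0564 after correction for length and GC). EGR1 fell the most on this list, from 743 ± 188 to 170 ± 117 CPM (log2 −2.13, edgeR adjusted p = 0.0164). GPAM, an enzyme of triglyceride synthesis, fell from 252.6 ± 14.8 to 149.1 ± 28.7 CPM, and MYC from 297.1 ± 2.72 to 177.8 ± 44.6 CPM.

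The genes most like each member over the 6 libraries were found by the root mean square difference of log2 CPM, each gene centred on its own mean, among genes with a mean of at least 5 CPM. This is a description over 6 libraries of 2 groups. The receptors and IRS1 lay close to each other: IGF1R was 0.145 from IGF2R, and INSR was 0.15 from IRS1. Closest of all genes were LINC01278 to INSR (0.040), THAP6 to IGF2R (0.046), KIAA0355 to IRS1 (0.057) and TPM2 to IGF1R (0.078). TUBA4A was closest to IGF2 (0.063) and BMP1 to IGFBP4 (0.052). IGFBP1 had no near match: TNRC6C-AS1 (0.623) and C5 (0.714) were the closest, and IGFBP3 was nearest to HAL (0.709).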

How the data were processed

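Per the labels, total RNA of 3 2D and 3 3D samples was sequenced. The submitters' processing notes name STAR 2.4.1d, Partek and build hg38. Not given in the sources used here: annotation release, counting settings, strand handling. The authors deposited unscaled estimated counts per gene. The lowest gene total was 9. Groups and columns were matched by sample title.

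Estimated counts were rounded. The main test was the quasi-likelihood test of edgeR 4.0.16 in R 4.3.3 (filterByExpr, TMM, robust; term: culture), adjusted by Benjamini-Hochberg across every gene tested. Standard errors were derived from F statistics. Replicate libraries all differed by more than sampling noise (chi-square per degree of freedom 10.3 to 26.7). Scripts were tested on simulated data. Length and GC content were those of GENCODE 29 (longest transcript; 16127 genes matched by symbol and position, 281 by an older symbol) and were corrected by loess offsets per library (span 0.5).

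Members and lists were chosen with earlier results of these data known. Named by rule were all members, up to 3 called genes per direction and list at 1 CPM or more, up to 2 most abundant genes per marker list, a few fixed genes, and the 2 genes most like each member; not all are named. IGF2BP1 was named outside this rule. Alternatives were DESeq2 1.42.0, limma-voom (limma 3.58.1), other scalings and filters, length and GC correction, protein-coding genes only, a replicate block, and omission of libraries. The alternative of protein-coding transcript length was chosen after seeing the data. Gene copies and overlapping genes may share reads, since their handling is not given.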

Additional observations from a re-analysis of the deposited data

How the results depend on the processing

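Of 18 alternatives, all kept 3 members higher (IGF2, IGFBP2 and IGFBP4 in each), and 4 to 6 members were lower, where 11.6% to 20.4% of all genes were lower. IGF1R, IGF2R, INSR and IRS1 were called lower in each. The IGFBP1 log2 fold change lost its call with no filter on low counts (edgeR adjusted p = 0.0756), with the replicate block (0.113) and without 2D replicate 2 and 3D replicate 1 together (0.157), besides the single libraries named above. The IGFBP3 log2 fold change reversed with limma-voom (−0.46), with the replicate block (−0.45) and with that block and length and GC correction (−0.56), and ran from −1.83 to 0.73 with 1 library left out. That of H19 ran from −2.14 to 0.06. The cause was not tested. With 1 library left out, genes higher numbered 1938 to 2817 (2910 with all), and pathway genes higher 16 to 24 (27 with all), fewest without 2D replicate 1. Pathway genes higher were 17 with the replicate block and length and GC correction. Replicate numbers did not pair the samples: deviations of same-numbered libraries correlated at 0.053, −0.009 and −0.078. The replicate block alone called 2747 genes higher, 2611 lower and 4 members lower. No scaling moved the median of all genes by over 0.1. At the depth of 3D replicate 1, 3 counts are 0.298 CPM, which limits IRS2.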
